A study of Homo sapiens with 6 samples.

Results

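The transcripts of 10 pluripotency factors were followed in TCam-2, an established cell line from a human seminoma, the germ cell tumour of the testis that most resembles primordial germ cells. The factors are POU5F1, NANOG, SOX2, LIN28A, LIN28B, SALL4, TFCP2L1, DPPA4, PRDM14 and KLF4, and they were taken by symbol from the 62700 genes of the table. Each of the 10 matched 1 gene. The 3 groups held 2 libraries each: cells that were not transduced (WT), cells transduced with GFP_FLAG (GFP) and cells transduced with RBMXL3_FLAG (RBMXL3). RBMXL3 belongs to the RBMX family of RNA-binding proteins, and the WT and GFP cells are the study's negative controls for its overexpression. All 6 libraries share the same line and medium and came from polyadenylated RNA made into stranded libraries. Neither the labels nor the study's design text says which promoter drives the transgenes, whether the transduced cells are 1 clone, or whether duplicates came from separate cultures. The p-values then measure only the spread between these libraries, which may be technical. The RBMXL3 libraries were the shallowest, with 17685680 to 21023355 recovered reads, beside 23080795 to 26776703 for GFP and 28604436 to 29318007 for WT. RBMXL3 itself had 0 reads in all 4 control libraries and 84 and 68 reads in the RBMXL3 libraries.

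Pluripotency is the capacity of early embryonic cells, and of some germ cell tumours, to form many tissues. Its core is a set of DNA-binding proteins. POU5F1 (OCT4) binds an octamer sequence, usually beside a SOX protein, and together with NANOG they bind and activate one another's genes. In primordial germ cells and in seminoma, SOX2 is silent and SOX17 takes the place of the SOX partner, whereas embryonal carcinoma expresses SOX2. LIN28A and LIN28B bind RNA and block maturation of the let-7 microRNAs. SALL4 and PRDM14 act mainly as repressors. TFCP2L1 and KLF4 act downstream of LIF and STAT3 in naive stem cells, and DPPA4 is a chromatin protein of pluripotent and germ cells.

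The sequence before the start site is shown for 3 of the genes. NANOG and SOX2 are shown because they hold an octamer core, which POU5F1 is known to read, and DPPA4 as a factor called higher against both controls. RefSeq (GRCh38.p14) gave the 250 bases before the start site for NANOG, SOX2, LIN28B, TFCP2L1, DPPA4 and KLF4. It had no entry for POU5F1, LIN28A, SALL4 and PRDM14. The NANOG window lies at chr12:7789152-7789401 on the plus strand, the SOX2 window at chr3:181711675-181711924 on the plus strand, and the DPPA4 window at chr3:109337547-109337796 on the minus strand. Capitals mark an octamer core (ATGCAAA) or a SOX core (CATTGT) on either strand.
NANOG promoter: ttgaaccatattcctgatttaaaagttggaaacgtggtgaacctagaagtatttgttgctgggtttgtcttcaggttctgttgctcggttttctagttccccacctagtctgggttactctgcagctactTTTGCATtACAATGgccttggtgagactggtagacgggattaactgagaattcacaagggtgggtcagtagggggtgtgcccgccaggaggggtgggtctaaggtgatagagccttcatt
SOX2 promoter: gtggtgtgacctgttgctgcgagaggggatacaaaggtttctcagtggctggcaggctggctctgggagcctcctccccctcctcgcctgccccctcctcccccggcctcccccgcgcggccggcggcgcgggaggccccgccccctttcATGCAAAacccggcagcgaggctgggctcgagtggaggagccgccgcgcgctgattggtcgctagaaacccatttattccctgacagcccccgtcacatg
DPPA4 promoter: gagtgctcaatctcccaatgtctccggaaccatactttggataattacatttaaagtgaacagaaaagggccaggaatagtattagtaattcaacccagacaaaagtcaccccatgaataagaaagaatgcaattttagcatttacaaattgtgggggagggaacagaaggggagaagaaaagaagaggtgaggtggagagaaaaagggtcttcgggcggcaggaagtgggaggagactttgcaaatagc

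In the NANOG window the octamer core ran from position -120 to -114, counted from the start site, and the SOX core from -112 to -107, both on the strand opposite to the gene. The cores with 1 base between them, in that order, were found in 2 of the 27305 promoters of the table. That joined form was searched because it is the published site of the NANOG promoter, so its match there is no independent finding. SOX2 held an octamer core from -100 to -94 and no SOX core. LIN28B held a SOX core from -140 to -135. An octamer core stood in 3.98% of all promoters of this length and a SOX core in 9.45%. A KLF motif (GGGTGNGGC, in 5.06% of promoters) was searched on both strands as well, and the TFCP2L1, DPPA4 and KLF4 windows held none of the motifs. A match of letters is a description and does not show binding.

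Levels are compared between genes as TPM, a unit per transcript length and library, summed over the transcripts of a gene. POU5F1 (chr6:31164337-31180731, minus strand) was the most abundant, from 1373 to 2126 TPM over the 6 libraries, and ranked 88 of 57815 genes. NANOG (chr12:7787794-7799141, plus strand) followed at 671 to 764 TPM, then LIN28A (chr1:26410778-26429722, plus strand) at 208 to 241 TPM. DPPA4 (chr3:109326141-109337572, minus strand) had 146 to 209 TPM, and its range met that of LIN28A, although LIN28A was above DPPA4 in 6 of 6 libraries. The RBMXL3 libraries brought these 2 genes closest, with LIN28A at 209 and 221 TPM and DPPA4 at 209 and 206 TPM.

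KLF4 (chr9:107484852-107490482, minus strand) had 78.6 to 88.2 TPM and LIN28B (chr6:104936616-105083332, plus strand) 47.7 to 67.7 TPM. PRDM14 (chr8:70051651-70071693, minus strand) at 37.1 to 46.1 TPM and SALL4 (chr20:51782331-51802520, minus strand) at 36.7 to 45.0 TPM could not be ordered, each being the higher in 3 libraries. TFCP2L1 (chr2:121216587-121285207, minus strand) had 14.2 to 25.9 TPM. SOX2 (chr3:181711924-181714436, plus strand) was last at 0.37 to 1.03 TPM, which ranked it 14411. All other neighbours in the order had ranges that did not overlap.

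The labelled cell type was set against its markers. Of 10 seminoma and germ cell markers, 9 passed the minimum for testing, among them SOX17 at a mean of 143 TPM and TFAP2C at 588 TPM. Of 10 embryonal carcinoma markers, 7 were tested, and the list summed to 155 to 181 TPM over the libraries. TDGF1 (mean 128 TPM), DNMT3B (28.1 TPM), FGF4 (7.75 TPM) and GDF3 (4.35 TPM) were among those expressed. SOX2, TNFRSF8, LEFTY1 and LEFTY2 each had a mean under 1 TPM, and DPPA5 had 0 reads in every library. The seminoma and germ cell list summed to 1665 to 1964 TPM over the libraries. The line thus held transcripts of both marker lists, with the seminoma list far higher in sum. The sums compare different genes and rest much on single abundant ones, such as TFAP2C and TDGF1. They do not by themselves identify the cell type. MAGEA4 was the seminoma marker near 0, at 0 to 7.49 normalised reads.

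**Figure D1:**
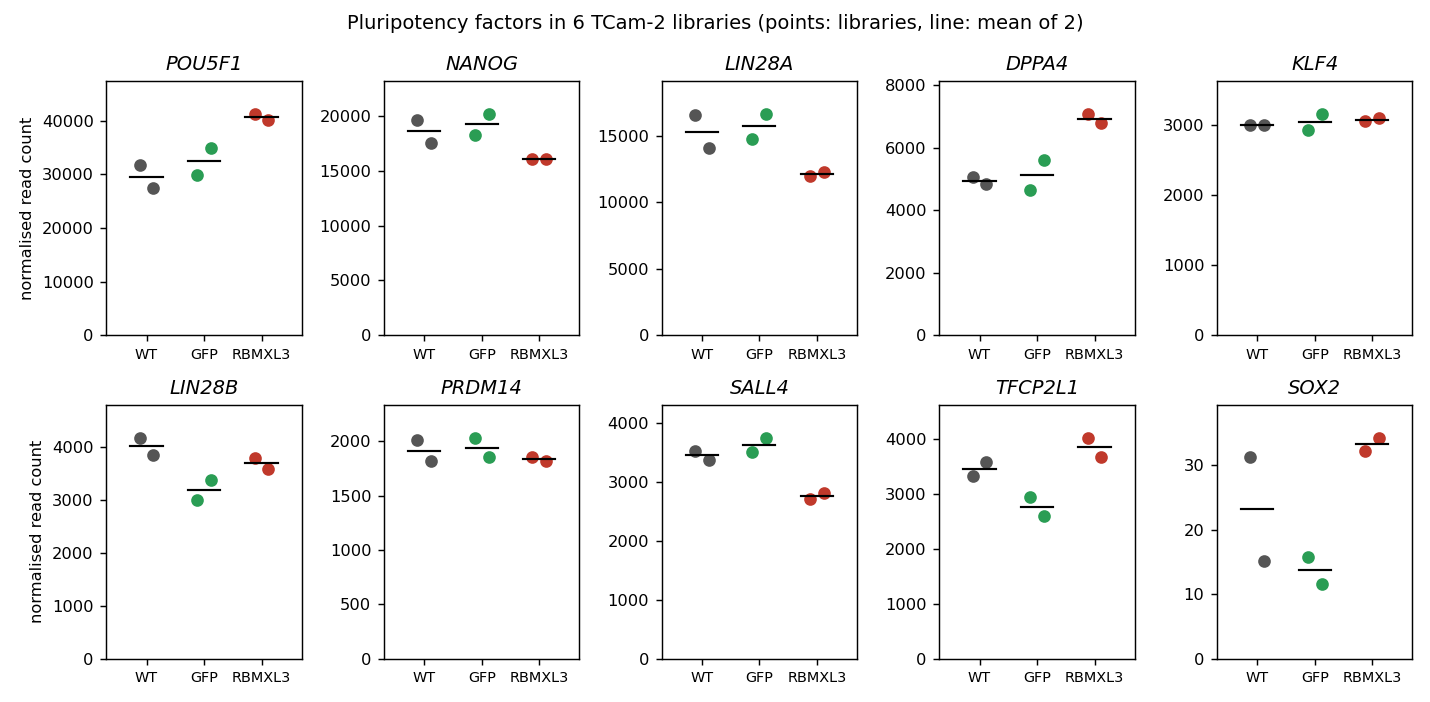
Normalised read count of each factor (vertical axis from 0, own scale per gene) in the WT, GFP and RBMXL3 groups, genes ordered by TPM; points are single libraries and the line is the mean of 2. Both RBMXL3 points lie above all 4 control points for POU5F1, DPPA4, TFCP2L1 and SOX2, and below them for NANOG, LIN28A and SALL4.

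Differences between groups were tested on the deposited normalised read counts, which are reads divided by 1 size factor per library. A gene was called at an adjusted p under 0.05 (limma, Benjamini-Hochberg over all 14292 genes tested). Against GFP, 5 of the 10 factors were called (50%), where 20.9% of all genes tested were called. SOX2, TFCP2L1 and DPPA4 rose, where 10.5% of all genes were called higher, and LIN28A and SALL4 fell, where 10.4% were called lower. Against WT, 4 of 10 were called (40%), where 29.9% of all genes were called. Here POU5F1 and DPPA4 rose, with 14.6% of all genes called higher, and LIN28A and SALL4 fell, with 15.3% called lower. Only DPPA4 (up), LIN28A and SALL4 (down) among the 10 were called in the same direction against both controls, where 13.7% of all genes were. The comparisons share the RBMXL3 libraries. SOX2 passed the minimum for testing only through both RBMXL3 libraries and WT replicate 1, so a count that includes it is no support. Without SOX2, 4 of 9 factors were called against GFP (44.4%; 2 higher, 2 lower) and 4 of 9 against WT. The median log2 change of the 10 was 0.12 against GFP and -0.01 against WT, beside 0.00 and -0.01 over all genes tested. That median includes SOX2. Without SOX2 the median of the other 9 was the value of KLF4 against GFP (0.02) and of PRDM14 against WT (-0.05).

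Both RBMXL3 libraries lay outside all 4 control libraries for 7 of the 10 factors (4 above, 3 below), where 46.1% of all genes tested did so (22.5% above, 23.6% below). Without SOX2 it was 6 of 9. Without either of the RBMXL3 libraries, 0 of the 10 were called against each control by limma. The number of all genes called against GFP was then 844 or 679 in place of 2986. The changes themselves stayed about as large without RBMXL3 replicate 1 or 2, at -0.36 and -0.41 for SALL4 against GFP, -0.36 and -0.39 for LIN28A and 0.41 and 0.47 for DPPA4. With no minimum value, limma kept the call of DPPA4 against WT and no other call of a factor.

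**Figure D2:**
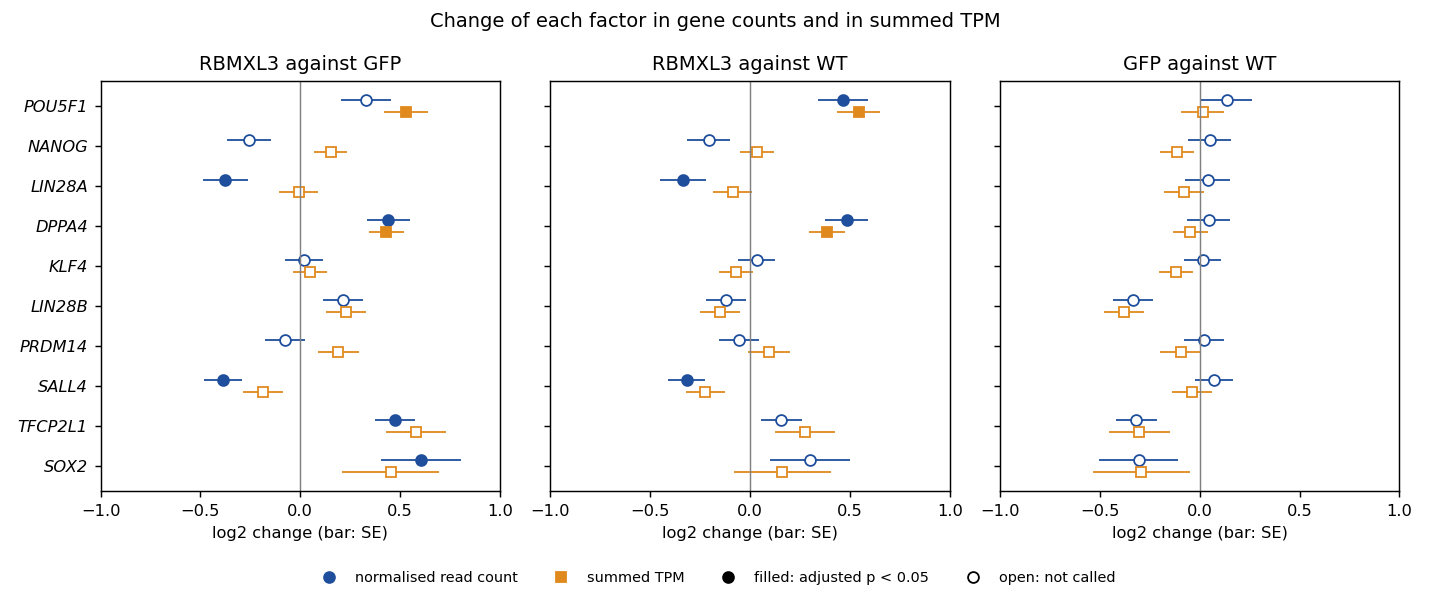
Log2 change (horizontal axis) of each factor in the 3 comparisons, from normalised read counts (circles) and from summed TPM (squares); bars are the standard error, filled symbols have an adjusted p under 0.05 and open symbols do not. DPPA4 is filled for both measures against both controls, while LIN28A and SALL4 are filled for read counts and open for TPM.

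Among the core factors, POU5F1 had 31660 and 27460 normalised reads in WT, 29921 and 34996 in GFP, against 41233 and 40115 in RBMXL3. Both RBMXL3 libraries were above every control library. Its log2 change was 0.46 against WT (SE 0.13, adjusted p = 0.0155, limma) and 0.33 against GFP (SE 0.13, adjusted p = 0.0798, limma), so POU5F1 was called against WT and not against GFP. In TPM it had 1529 and 1389 in WT, 1373 and 1577 in GFP, against 2126 and 2126 in RBMXL3. On that scale it was called against both (log2 changes 0.54 and 0.53, adjusted p = 0.0292 against WT and 0.0404 against GFP, limma). DESeq2 on the recovered reads also called it against GFP (log2 change 0.34, adjusted p = 0.0332). Its call against WT was lost without WT replicate 2 (adjusted p = 0.113, limma), and a call against GFP was gained without GFP replicate 2 (0.00891). The TCF19 gene on the opposite strand overlaps 8.56% of the exon length of POU5F1, and had 886 to 1142 normalised reads. Its own change was not called in any of the 3 comparisons.

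NANOG moved the other way in read counts, though not past the threshold. It had 19609 and 17582 normalised reads in WT, 18297 and 20173 in GFP, against 16054 and 16106 in RBMXL3. Both RBMXL3 libraries were below all controls, with log2 changes of -0.26 against GFP (SE 0.11, adjusted p = 0.112, limma) and -0.21 against WT (SE 0.11, adjusted p = 0.166, limma). In TPM the groups overlapped and the sign turned, at 749 and 724 in WT, 689 and 671 in GFP, against 747 and 764 in RBMXL3. The TPM change was 0.15 against GFP (adjusted p = 0.286, limma) and 0.04 against WT (adjusted p = 0.804, limma). Without GFP replicate 1 the counts of NANOG were called lower against both controls (adjusted p = 0.025 and 0.0438, limma), and without GFP replicate 2 against WT (0.0417). No direction of NANOG held across both measures.

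NANOG reads are also uncertain because of a near-identical copy. NANOGP8, an intronless retrogene at chr15:35084193-35085110, differed from the NANOG coding sequence at 5 of 918 bases (99.5% identity in the GENCODE 29 transcripts), with 284 bases as the longest run without a difference. The first 60 coding bases are shown because they hold 1 of the differences, in capitals.
NANOG-201: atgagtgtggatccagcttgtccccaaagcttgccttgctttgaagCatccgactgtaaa
NANOGP8-201: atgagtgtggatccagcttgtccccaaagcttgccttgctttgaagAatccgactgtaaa

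Reads assigned to NANOGP8 were 862 and 783 normalised in WT, 731 and 1053 in GFP, against 1203 and 1103 in RBMXL3. They equalled 3.995% to 5.22% of the NANOG count in the controls, and 7.49% and 6.85% in RBMXL3, so the 2 groups of ratios did not overlap. The NANOGP8 count was called higher against WT (log2 change 0.48, SE 0.15, adjusted p = 0.0277, limma) and not against GFP (0.38, SE 0.15, adjusted p = 0.0806, limma). The call was lost without either WT library (0.104 and 0.169), and without GFP replicate 2 NANOGP8 was called against GFP (log2 change 0.64, adjusted p = 0.00115). With both genes summed, RBMXL3 stayed below all controls, at 17256 and 17209 against 18365 to 21227, and NANOG was still not called (log2 change -0.22, adjusted p = 0.173 against GFP, limma). Which locus the reads came from was not tested.

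SOX2, the usual partner of POU5F1 in stem cells, was close to the limit of these libraries. Its recovered reads were 37 and 18 in WT, 17 and 11 in GFP, against 25 and 32 in RBMXL3. The normalised counts were 31.3 and 15.1 in WT, 15.7 and 11.7 in GFP, against 32.2 and 34.2 in RBMXL3. WT replicate 1 stood with the RBMXL3 libraries, and the other controls stood lower. SOX2 was called against GFP by a small margin (log2 change 0.61, SE 0.20, adjusted p = 0.0480, limma) and not against WT (0.30, SE 0.20, adjusted p = 0.275, limma). The ratio of the group means was 2.43 against GFP, and the log2 change is smaller because the pseudocount weighs on so low a gene. The call was lost with edgeR (adjusted p = 0.0537) and DESeq2 (adjusted p = 0.111) on the recovered reads, and without GFP replicate 1 (0.059) or GFP replicate 2 (0.118) in limma.

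The non-coding gene SOX2-OT, within which SOX2 lies on the same strand, shares no exon with it. Its normalised counts were 351 and 338 in WT, 210 and 239 in GFP, against 133 and 104 in RBMXL3, with no overlap between the 3 groups. SOX2-OT fell against GFP (log2 change -0.81, SE 0.15, adjusted p = 0.00285, limma) and against WT (-1.38, SE 0.15, adjusted p = 6.92e-05, limma). GFP was itself below WT (-0.57, SE 0.15, adjusted p = 0.0496, limma), so GFP stood between WT and RBMXL3. The call between the controls was lost without any 1 library other than GFP replicate 2 (adjusted p = 0.0739 to 0.284), and the call against GFP without RBMXL3 replicate 2 (0.0525).

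Of the RNA-binding pair, LIN28A had 16547 and 14060 normalised reads in WT, 14789 and 16619 in GFP, against 11935 and 12244 in RBMXL3. Both RBMXL3 libraries were below every control, and LIN28A fell against GFP (log2 change -0.37, SE 0.11, adjusted p = 0.0345, limma) and WT (-0.33, SE 0.11, adjusted p = 0.0412, limma). TPM did not show this fall. It gave 241 and 217 in WT, 208 and 226 in GFP, against 209 and 221 in RBMXL3, so the groups overlapped (log2 changes -0.01 and -0.09, adjusted p = 0.967 against GFP and 0.586 against WT, limma). Quantile normalisation, too, ended both calls (adjusted p = 0.234 and 0.177). The call against WT was also lost without WT replicate 1 (log2 change -0.22, adjusted p = 0.287, limma).

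LIN28B, its paralogue, had 4177 and 3857 normalised reads in WT, 3001 and 3375 in GFP, against 3803 and 3584 in RBMXL3. GFP was lowest and RBMXL3 stood between the groups. LIN28B was called in none of the comparisons, and its largest difference was between the controls (log2 change -0.33 in GFP against WT, SE 0.10, adjusted p = 0.0819, limma). Without GFP replicate 2 it was called lower in GFP than in WT (adjusted p = 0.00813) and higher in RBMXL3 than in GFP (0.021).

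SALL4, a zinc finger repressor, had 3531 and 3378 normalised reads in WT, 3510 and 3751 in GFP, against 2718 and 2820 in RBMXL3. The RBMXL3 libraries were the lowest, and SALL4 fell against GFP (log2 change -0.39, SE 0.09, adjusted p = 0.0132, limma) and WT (-0.32, SE 0.09, adjusted p = 0.0236, limma). TPM had the same order, with 36.7 and 37.5 in RBMXL3 under 40.1 to 45.0 in the controls, but was not called (log2 changes -0.18 and -0.22, adjusted p = 0.273 against GFP and 0.181 against WT, limma). The count-based call against WT was lost without WT replicate 1 (0.141) or WT replicate 2 (0.0647), with log2 changes of -0.29 and -0.35, and with quantile normalisation (0.0975). PRDM14, the other repressor, overlapped in all groups by normalised reads, at 2010 and 1816 in WT, 2033 and 1855 in GFP, against 1860 and 1818 in RBMXL3. By TPM both RBMXL3 libraries, at 46.1 and 45.5, were above the controls at 37.1 to 43.2. PRDM14 was called in none of the comparisons by either measure.

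TFCP2L1, the first of the factors downstream of LIF, had 3317 and 3569 normalised reads in WT, 2934 and 2589 in GFP, against 4016 and 3670 in RBMXL3. The 3 groups did not overlap, with GFP lowest and RBMXL3 highest. TFCP2L1 rose against GFP (log2 change 0.47, SE 0.10, adjusted p = 0.00744, limma) and was not called against WT (0.16, SE 0.10, adjusted p = 0.263, limma). The difference between these 2 changes is that of GFP against WT, which was not called either (-0.32, SE 0.10, adjusted p = 0.098, limma), except without GFP replicate 1 (0.0206). In TPM the rise against GFP missed the threshold (0.58, adjusted p = 0.064). KLF4, a zinc finger activator, had 3010 and 3008 in WT, 2928 and 3158 in GFP, against 3066 and 3098 in RBMXL3. Its log2 changes were 0.02 against GFP and 0.03 against WT (SE 0.09 each), the smallest of the 10 factors.

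DPPA4 was called higher in RBMXL3 against both controls by both measures. It had 5060 and 4831 normalised reads in WT, 4630 and 5614 in GFP, against 7070 and 6789 in RBMXL3. Both RBMXL3 libraries were above all controls, and DPPA4 rose against GFP (log2 change 0.44, SE 0.11, adjusted p = 0.0138, limma) and WT (0.48, SE 0.11, adjusted p = 0.00572, limma). TPM gave 161 and 156 in WT, 146 and 161 in GFP, against 209 and 206 in RBMXL3, and called it against both (log2 changes 0.43 and 0.39, adjusted p = 0.0415 against GFP and 0.0408 against WT, limma). The call against WT was lost without WT replicate 2 by a small margin (adjusted p = 0.0511). DPPA2, the partner of DPPA4 in chromatin, did not rise with it. It had 172 and 152 normalised reads in WT, 218 and 206 in GFP, against 152 and 128 in RBMXL3, and fell against GFP (log2 change -0.53, SE 0.14, adjusted p = 0.022, limma) but was not called against WT (-0.18, SE 0.14, adjusted p = 0.359).

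Between the controls, 0 of the 10 factors were called by limma, where 3.67% of all genes were. LIN28B and TFCP2L1 were the 2 with an unadjusted p under 0.05 (limma), and edgeR and DESeq2 each called 0. The share of all genes is not given for that unadjusted threshold or for these tools. Those numbers therefore show no excess or lack in the factors.

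Gene counts and TPM differed for these factors, and the cause was not tested. With summed TPM the median log2 change of all genes was 0.13 against GFP and 0.03 against WT. Relative to that median, the TPM changes against GFP were 0.40 for POU5F1, 0.45 for TFCP2L1, 0.31 for DPPA4, 0.03 for NANOG, -0.13 for LIN28A and -0.31 for SALL4. Summed TPM called 2 of 10 factors against each control, POU5F1 and DPPA4, where 6.93% of all genes were called against GFP and 11.5% against WT. Conversely, the 2773 genes at least as abundant as PRDM14 had a median log2 change in read counts of -0.10 against GFP and -0.14 against WT. Abundant genes as a class were thus slightly lower in RBMXL3 on the deposited scale. With quantile normalisation these medians were -0.01 and -0.03. That method gives every library the same distribution, so it removes such a shift whatever its origin. The origin of the shift was not tested.

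Ratios within a library do not depend on its size factor, and are given for 4 pairs. The pairs were chosen after the values were seen, and the ratios are descriptions. In read counts POU5F1 and DPPA4 lay above all controls and NANOG and SALL4 below them. Separate count ratios for these pairs therefore followed from the choice. POU5F1 reads were 1.61 and 1.56 times those of NANOG in WT, 1.64 and 1.73 times in GFP, and 2.57 and 2.49 times in RBMXL3. By TPM the ratio was 1.92 to 2.35 in the controls and 2.85 and 2.78 in RBMXL3, so it was higher in RBMXL3 by both measures. DPPA4 to SALL4 gave 1.32 to 1.50 in the controls and 2.60 and 2.41 in RBMXL3, and by TPM 3.27 to 4.02 and 5.68 and 5.49. LIN28A to LIN28B gave 3.96 and 3.65 in WT, 4.93 and 4.92 in GFP, against 3.14 and 3.42 in RBMXL3, but by TPM the RBMXL3 values of 3.57 and 3.98 fell within the controls. KLF4 to PRDM14, a pair of uncalled genes, overlapped in all groups at 1.44 to 1.70. By TPM that ratio was 1.82 to 2.12 in the controls and 1.77 and 1.78 in RBMXL3.

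**Figure D3:**
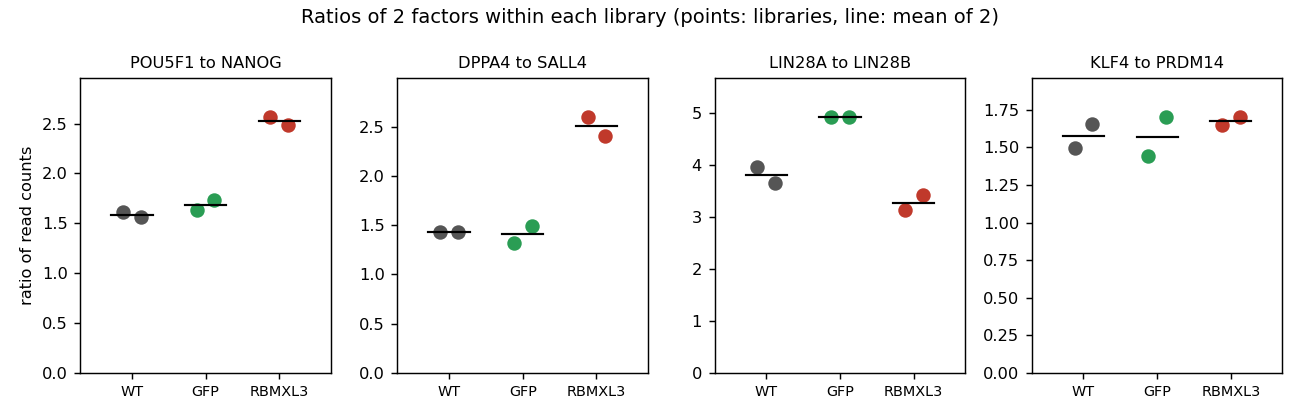
Ratio of normalised read counts of 2 factors within each library (vertical axis from 0), by group; points are libraries and the line is the mean of 2. POU5F1 to NANOG and DPPA4 to SALL4 are above 2.4 in both RBMXL3 libraries and under 1.8 in all 4 controls, while KLF4 to PRDM14 overlaps. The pairs were chosen after the values were seen, so the separation and the overlap are descriptions.

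Transcripts were read from the deposited TPM with the names and types of GENCODE 29. Of the transcripts of the 10 factors, 30 had at least 1 TPM in at least 2 libraries and were tested. Limma called 0 of 30 in each comparison, where 1.25% of all transcripts were called against GFP, 1.53% against WT and 0% between the controls. At an unadjusted p under 0.05 (limma) there were 12 of the 30 against GFP, 8 against WT and 4 between the controls. The share of all transcripts under that unadjusted threshold was not counted, so these numbers do not show an excess in the factors. No count tool was run on TPM. The values that follow are therefore descriptions.

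POU5F1-201, a protein-coding form, held at least 99.8% of POU5F1 TPM in 5 libraries. In GFP replicate 1 it held 85.8%, because POU5F1-202 was listed at 194 TPM there and at 0 in every other library. POU5F1-203, a retained-intron form, stayed at or under 2.0 TPM, and POU5F1-206 at 0.9 to 2.0 TPM. SOX2-201 is the single SOX2 form.

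NANOG was spread over 4 forms. NANOG-203, listed as a processed transcript without an open reading frame, had 153 and 174 TPM in WT, 96.3 and 148 in GFP, against 246 and 232 in RBMXL3. Its share of NANOG TPM was 14.0% to 24.1% in the controls and 32.9% and 30.4% in RBMXL3. NANOG-202 held 28.2% to 37.2% in the controls and 23.4% and 25.7% in RBMXL3. NANOG-201 was level, at 169 to 194 TPM in all libraries, and NANOG-204 overlapped at 140 to 198 TPM.

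LIN28A-201 had 132 and 130 TPM in WT, 113 and 108 in GFP, against 130 and 134 in RBMXL3. LIN28A-202, the longer form, overlapped between groups at 78.7 to 117 TPM. LIN28B-201 had 40.8 to 53.9 TPM and LIN28B-202 7.0 to 13.9 TPM. SALL4-201 carried most of SALL4, at 30.2 and 32.3 TPM in RBMXL3 and 31.5 to 35.7 in the controls. SALL4-202, SALL4-203, SALL4-204 and SALL4-205 were each at or under 7.3 TPM. TFCP2L1-201 and PRDM14-201 made up over 99% of their gene, except for TFCP2L1-201 in GFP replicate 1 (83.6%).

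DPPA4-201, a protein-coding form, had 102 and 92.3 TPM in WT, 92.5 and 108 in GFP, against 148 and 149 in RBMXL3. Its share was 59.2% to 66.6% in the controls and 70.7% and 72.5% in RBMXL3. It missed the threshold with adjusted p = 0.0951 against GFP and 0.0789 against WT (limma). DPPA4-208, a predicted target of nonsense-mediated decay, had 6.9 to 12.2 TPM in the controls and 6.4 and 2.6 in RBMXL3. DPPA4-202, DPPA4-203, DPPA4-205, DPPA4-206 and DPPA4-207 each had at most 19.7 TPM.

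KLF4 kept a level gene total over forms that differed. KLF4-201, a coding form, had 34.1 and 26.8 TPM in WT, 31.4 and 32.1 in GFP, against 42.7 and 49.9 in RBMXL3. KLF4-206, another coding form, had 10.3 and 9.2 TPM in WT, 4.5 and 6.6 in GFP, against 2.5 and 0.9 in RBMXL3. KLF4-205, a retained-intron form, had 35.9 to 48.8 TPM in the controls and 33.1 and 26.9 in RBMXL3. KLF4-204 stayed at or under 3.4 TPM. Each of these 4 forms had both RBMXL3 libraries outside all controls, while summed KLF4 TPM overlapped at 78.6 to 88.2. The share of all transcripts that did so was not counted, and at gene level it was 46.1% of all genes. The 4 forms were not called in any comparison, so a change of KLF4 forms is not shown.

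**Figure D4:**
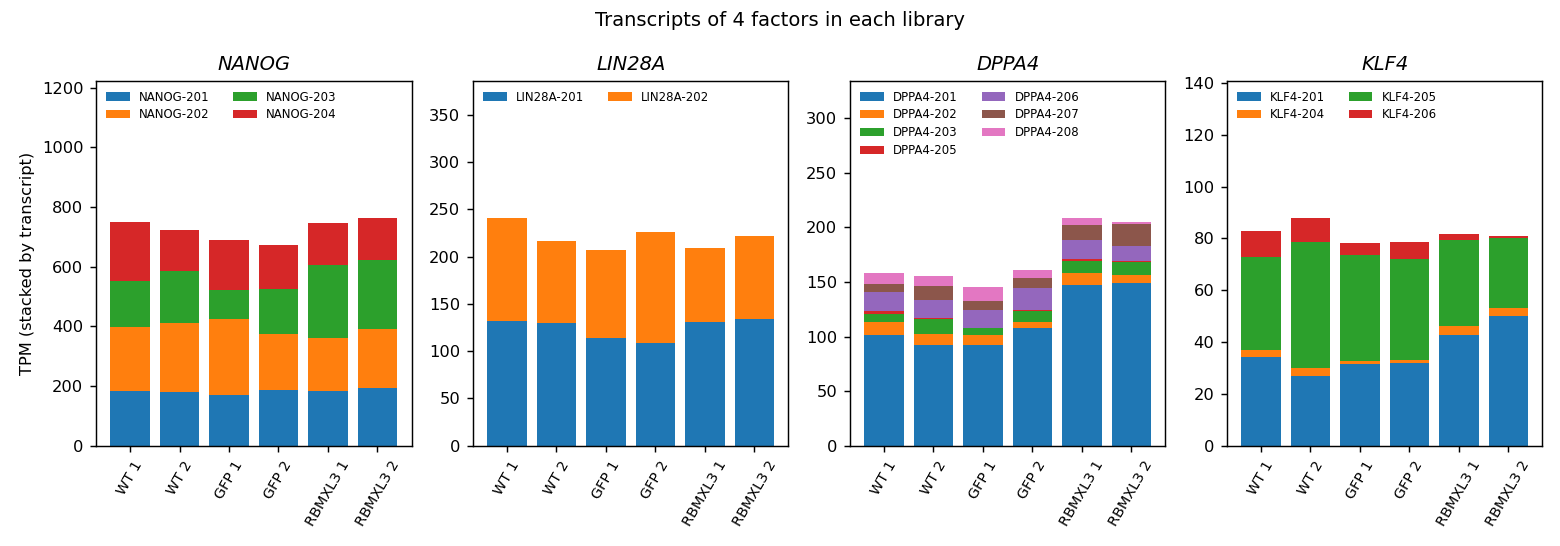
TPM of the transcripts of NANOG, LIN28A, DPPA4 and KLF4 (vertical axis from 0, stacked by transcript) in the 6 libraries, for transcripts with at least 1 TPM in at least 2 libraries. The DPPA4-201 segment is 148 and 149 TPM in RBMXL3 and at most 108 in the controls, and the KLF4-206 segment is 10.3 TPM in WT replicate 1 and 0.9 TPM in RBMXL3 replicate 2.

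Copies and antisense genes of the factors were looked for by name, and 21 of 30 had 0 reads in every library. POU5F1B, an intronless copy of POU5F1, had 15.2 to 31.0 normalised reads, which is small beside POU5F1. LIN28B-AS1, on the opposite strand of LIN28B, was among those at 0.

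Genes around the factors were counted in 5 lists, drawn up with earlier results of these data known. In the wider pluripotency network, 17 of 26 genes were tested. Against GFP 3 rose and 2 fell (29.4%), and against WT 3 rose and 3 fell (35.3%). Against both controls ZSCAN10, a zinc finger protein of stem cells, rose (0.35 and 0.56, adjusted p = 0.0324 and 0.0023), and OTX2, a homeobox factor of primed cells, fell (-0.41 and -0.35, adjusted p = 0.0272 and 0.0412, limma). All log2 changes given in pairs here are against GFP, then against WT.

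Among LIN28 and let-7 genes, 26 were tested, of which 7 rose and 1 fell against GFP (30.8%) and 6 rose and 4 fell against WT (38.5%). ARID3A, a DNA-binding protein and let-7 target, rose from 3659 to 4041 normalised reads in the controls to 5859 and 6054 in RBMXL3 (0.58 and 0.66, adjusted p = 0.0017 and 0.0004, limma). CCND1, a cyclin of the G1 phase and let-7 target, rose as well (0.37 and 0.61, adjusted p = 0.0205 and 0.001, limma). DROSHA, the nuclease that begins microRNA processing, fell (-0.38 and -0.53, adjusted p = 0.0167 and 0.0018, limma). TRIM71, a let-7 target and stem cell protein, was not called in any comparison. The microRNAs themselves were not measured.

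Of the repressor partners of SALL4 and PRDM14, 22 were tested, of which 4 rose and 3 fell against GFP (31.8%) and 3 rose and 5 fell against WT (36.4%). MTA3 (-0.64 and -0.53), RBBP7 (-0.50 and -0.50) and HDAC2 (-0.38 and -0.43), subunits of the NuRD deacetylase complex, fell against both controls. MBD3 (0.37 and 0.42), of the same complex, rose, and so did MTA1 (0.31 and 0.32), which was named after its values were seen. NuRD subunits thus moved in both directions.

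On the LIF and STAT3 pathway, 11 genes were tested, of which 2 rose and 1 fell against GFP (27.3%) and 2 rose and 2 fell against WT (36.4%). IL6ST, the gp130 receptor chain, rose from 9365 to 11154 normalised reads in the controls to 15414 and 14846 (0.69 and 0.44, adjusted p = 0.0008 and 0.0051, limma). PIM1, a kinase gene induced by STAT3, rose too (0.53 and 0.85, adjusted p = 0.0059 and 0.0002, limma). STAT3 itself was not called against either control, with 1186 and 1208 normalised reads in RBMXL3 and 1070 to 1264 in the controls.

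Among 33 tested relatives of the factors, 7 rose and 1 fell against GFP (24.2%), 10 rose and 4 fell against WT (42.4%), and 6 rose against both. SOX4, a SOX family activator, rose most, from 1481 to 1927 normalised reads in the controls to 3310 and 3395 in RBMXL3 (0.99 and 0.89, adjusted p = 0.0004 and 0.0003, limma). KLF9 (0.56 and 0.76), POU3F1 (0.66 and 0.50) and SOX9 (0.49 and 0.60) rose from low levels. SOX17, the seminoma partner of POU5F1, was not called against either control (-0.12 and -0.05, adjusted p = 0.504 and 0.764, limma). Each list's share called stood above that of all genes against GFP (20.9%) and against WT (29.9%), though against both controls the pluripotency network had 11.8% beside 13.7%. No test of these differences was made. The lists were drawn up with earlier results of these data known, so the shares do not show an excess.

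Markers of other cell types moved between the groups beside the factors. All 5 tested fibroblast and stroma markers of 7 were called higher in GFP than in WT, and COL3A1 and LUM were called higher in RBMXL3 than in both. The summed normalised count of the 7 was 9072 to 10207 in WT, 12672 to 14324 in GFP and 13331 to 14085 in RBMXL3. DCN was near 0 (at most 1.69), and PDGFRA at most 17.0. The 5 leukocyte markers summed to 20.3 to 27.7 in WT, 30.5 to 38.1 in GFP and 53.5 to 61.8 in RBMXL3, with CD3E at 0. Only 1 of these 5 passed the minimum for testing, and it was called higher against WT but not against GFP. In TPM the 5 summed to at most 4.63 in any library, which is close to the limit of detection. Of 13 germ layer markers 7 were tested, and FOXA2 rose while GATA6 fell against both controls. Among the seminoma markers, KIT and CXCR4 fell and NANOS3 rose against both. In bulk RNA, fewer cells of a type and less RNA per cell cannot be told apart, and the part of these markers in the factors' changes was not tested.

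The genes closest in pattern to each factor called against both controls were taken by Euclidean distance of centred log2 values over the 6 libraries, among 10743 genes. They were HNRNPC (distance 0.07) and SMS (0.08) for LIN28A, PLPP1 (0.05) and OTX2 (0.05) for SALL4, and CREBL2 (0.08) and GSTA4 (0.10) for DPPA4. The median distance of all genes was 0.53 to 0.70. The 6 libraries in 3 groups leave few independent patterns, so these are descriptions.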

How the data were processed

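Polyadenylated RNA of 6 TCam-2 libraries was analysed. Per the submitters' processing notes, Trim Galore 0.6.10, STAR 2.7.11a, DESeq2 and Salmon 1.10.2 were used with GRCh38; the counter, strand setting and annotation release are not given in the sources used here. Although its name says CPM, the deposited gene table holds a normalised signal: the authors' read counts divided by 1 size factor per library, since 100% of 145320 nonzero values were whole reads within 0.01. The deposited transcript table holds TPM, which keeps no depth; 80.0% of transcripts, carrying 94.7% to 95.1% of TPM, had a gene in GENCODE 29 (GRCh38), whose coordinates are given. Table columns that belong to no sample numbered 0.

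For testing, gene values were divided by 23.9 so that the mean total equals that of CPM; the planned test had assumed CPM. Genes at 1 or more in at least 2 libraries (14292) were tested as log2(value + 1), which understates changes of low genes, with limma 3.58.1 (R 4.3.3; trend, 1 fit of 6 libraries, two-sided). Transcripts (44693) were tested likewise on log2(TPM + 1). Alternatives were other pseudocounts and filters, quantile normalisation, summed TPM, a replicate block, leaving out each library, and edgeR 4.0.16 or DESeq2 1.42.0 on recovered reads; DESeq2 and edgeR are named where used. The method was tested on simulated data with larger log2 changes than the factors had, set in far fewer genes than were called here. Its power for changes as small as those of the factors was not tested.

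All 10 factors and their transcripts of at least 1 TPM in at least 2 libraries are named. In each list up to 4 genes called against both controls are named, by the larger smaller change, and 2 genes nearest in pattern per factor called against both. Other genes serve as context, and some genes of the lists are not reported here. Members, lists and tests were chosen with earlier results of these data known. In the let-7 list MIRLET7DHG matched no row. Intervals and floors are not given; a gene at 0 reads may lie under 3 reads, which covers counting error only.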

Additional observations from a re-analysis of the deposited data

How the results depend on the processing

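Leaving out 1 library at a time gave 0 to 6 factors called against GFP, 0 to 5 against WT, 0 to 1 between the controls, 0 to 4 against both controls and 0 to 2 transcripts against GFP; the lone library of a group is then assumed to vary like the others. Against both controls only 1 factor was left without WT replicate 1 and 1 without WT replicate 2, and 1 or 2 against WT. With no minimum value (30989 genes tested), 0 factors were called against GFP, 1 against WT and 0 against both; summed TPM called 2 and 2, and quantile normalisation 2 against WT. A mean TPM of at least 5 called 1 transcript against each control. The number of factors called by edgeR was 4 against each control, and by DESeq2 5 (GFP) and 4 (WT). Apart from summed TPM, the share of all genes called is not given for these settings, nor for the replicate block below. The counts thus show how calls depend on the setting, and not an excess in the factors.

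The replicate block, which shares only a number between duplicates (deviations correlated at -0.22, 0.02 and -0.14 between pairs of groups), called 4 factors against GFP and 2 against both, and lost LIN28A (adjusted p = 0.0607 against GFP and 0.069 against WT).

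Quantile normalisation turned NANOG to 0.0325 against GFP, 0.0251 against WT and -0.00741 between the controls. It gave 0.0121 for PRDM14 against WT and -0.0126 for LIN28A between the controls, and a POU5F1 change of 0.64 against GFP (adjusted p = 0.00327). With summed TPM, NANOG was 0.15 against GFP and 0.0366 against WT, PRDM14 0.19 and 0.0954, and KLF4 -0.0693 against WT. Between the controls summed TPM gave -0.11 for NANOG, -0.0792 for LIN28A, -0.0385 for SALL4, -0.0464 for DPPA4, -0.0960 for PRDM14 and -0.12 for KLF4. The cause of these changes was not tested.

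With 1 library left out, uncalled changes turned sign within these ranges: between the controls -0.0294 to 0.128 for NANOG, -0.0778 to 0.157 for LIN28A, -0.0944 to 0.182 for DPPA4, -0.0490 to 0.0953 for PRDM14, -0.0388 to 0.0694 for KLF4 and -0.16 to 0.35 for NANOGP8; PRDM14 against WT -0.127 to 0.0177; KLF4 against GFP -0.0352 to 0.0730. NANOG summed with NANOGP8 was chosen after seeing the data.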
